A study of Mus musculus with 16 samples.

Results

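DNA methylation at 9 amplicons of a targeted single-cell panel, out of 663 amplicons in all, was followed in 16 mouse libraries with 95930 cells. The 9 are AMPL365901, AMPL388770, AMPL388455, AMPL371535, AMPL371729, AMPL388433, AMPL388618, AMPL371259 and AMPL371481. They were chosen because their methylation calls differed between cells with different surface proteins in a library of mature immune cells from bone marrow and spleen and in a library of mature myeloid cells from bone marrow and peripheral blood. Their co-occurrence in single cells and their shares in bone marrow and lung endothelial libraries also entered the choice. Those values are therefore given as description, with no test. Tests of the members were kept to surface proteins in bone marrow libraries, whose tags the choice did not use. Comparisons between groups of bone marrow libraries rest on marrow shares, so the members' values there are given as description too.

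DNA methylation at CpG sites is copied when cells divide, and many sites gain or lose it as blood stem cells commit to the myeloid or the lymphoid lineage. A CpG that is methylated in one mature blood cell type and unmethylated in another therefore serves as a mark of lineage. Single-cell targeted analysis of the methylome (scTAM-seq) reads such sites 1 cell at a time: DNA is cut by a methylation-sensitive enzyme before amplification, so that an amplicon gives reads where its CpG was methylated and none where it was not. A cell with at least 1 read of an amplicon was called methylated there, and the share of cells so called is the methylation level of a library. Since a library holds a mixture of cells, a higher share of 1 cell type and more methylation within each cell cannot be told apart from the share alone. The tables name amplicons by panel identifier and pair them with no gene or position, so no sequence or coordinate is given here.

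Bone marrow gave 12 libraries. LARRY is a method that marks stem cells and their progeny with expressed lentiviral barcodes. Its main experiment has 4 marrow libraries (mouse 1 to mouse 4) and its replicate experiment has 2 (mouse 1 and mouse 2). Marrow labelled native hematopoiesis gave 1 library, a native aging experiment gave young 1, young 2, old 1 and old 2, and a transplantation experiment gave 1. The other 4 libraries also carry the LARRY label: mature myeloid cells from lung, mature myeloid cells from bone marrow and peripheral blood (BM+PB), mature immune cells from bone marrow and spleen (BM+spleen) and endothelial cells from lung. The labels give no strain, sex, age in numbers or treatment, and do not say which of the LARRY mice were transplanted or how many mice a library pools. Outside the numbered groups each kind of cell is 1 library. In the numbered groups p-values measure the spread between libraries, which may be partly technical.

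Libraries held from 3385 to 10059 cells with a median of 14693 to 89971 reads per cell. The exact 95% interval (Clopper-Pearson) of a member's share in 1 library was at most 1.70 percentage points to either side, which covers counting error only, and 0 methylated cells in the smallest library would still have left room for 0.0886%. Any pair of libraries shared at most 0.755% of the smaller one's cell barcodes. Surface proteins were counted through antibody tags in 7 libraries. In BM+spleen every tag but CD115 was found on over 95% of cells, at a median of 5 to 26 unique molecular identifiers (UMI), so cells were ranked by each tag relative to their other tags rather than split into positive and negative. The ranking did not isolate cell types: of the 10% of cells highest in CD11b, the integrin of neutrophils and monocytes, only 22.0% were also among the 10% highest in the neutrophil protein Ly-6G. The endothelial library is labelled as immune cells in GEO's cell type field, but the endothelial adhesion protein CD31 had a median of 14 UMI and was found on 93.0% of cells. Apart from CD31, Podoplanin and Sca-1 no tag of that library was found on more than 0.676% of cells, and whether those antibodies were applied is not stated, so nothing is read from them. In BM+PB the tag with the most UMI was the stem and progenitor receptor c-Kit, at 19.0% of all UMI.

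By the sign of their association with CD11b in BM+spleen, the 9 amplicons form 2 sets. In 5 of them methylation was found in fewer of the CD11b-high cells: AMPL371535, AMPL365901, AMPL371729, AMPL388455 and AMPL388770. They are called the CD11b-depleted amplicons here. The other 4, AMPL371259, AMPL388433, AMPL388618 and AMPL371481, were methylated in more of the CD11b-high cells and are called the CD11b-enriched amplicons. The split was made from these data and is not tested.

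Among the CD11b-depleted amplicons, methylation of AMPL365901 ran from 18.3% of cells (transplantation) through a median of 21.4% to 40.3% (old 2) over the 12 marrow libraries. It was 23.0% in lung myeloid cells, 12.6% in BM+PB myeloid cells, 43.0% in BM+spleen immune cells and 2.69% in lung endothelial cells. BM+spleen was thus above every marrow library, and BM+PB and the endothelial library were below all of them. AMPL371535 ran from 13.3% (native) through 21.5% to 37.5% (old 2) over marrow. Its share was 20.3% in lung myeloid, 9.51% in BM+PB, 32.6% in BM+spleen and 16.7% in endothelial cells. It was below the marrow range only in BM+PB.

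AMPL371729 and AMPL388455 were close to each other in marrow and far apart in endothelium. AMPL371729 ran from 47.2% through 56.6% to 72.2% over marrow and was 52.5% in lung myeloid, 30.3% in BM+PB, 49.5% in BM+spleen and 99.0% in endothelial cells. AMPL388455 ran from 45.1% through 52.4% to 65.6% over marrow and was 38.1% in lung myeloid, 27.7% in BM+PB, 45.1% in BM+spleen and 5.19% in endothelial cells. For both amplicons the highest marrow library was one of the LARRY replicate experiment. AMPL388770 had the widest range in marrow, from 28.8% (native) through 46.7% to 66.6% (LARRY replicate mouse 2). It was outside that range in 3 libraries, with 11.03% in BM+PB, 22.9% in BM+spleen and 93.8% in endothelial cells, and was at 36.6% in lung myeloid cells.

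The CD11b-enriched amplicons were methylated in most cells of every blood library. AMPL388618 ran from 82.7% (old 2) through 97.2% to 99.0% (native) over marrow, and was 95.3% in lung myeloid, 96.9% in BM+PB, 87.0% in BM+spleen and 78.7% in endothelial cells. AMPL388433 ran from 70.2% through 76.2% to 85.0%, and was 83.0% in lung myeloid, 82.4% in BM+PB, 76.7% in BM+spleen and 28.6% in endothelial cells. Endothelial cells were thus below the marrow range at both. AMPL371259 ran from 66.2% through 75.5% to 84.8%, and was 74.3% in lung myeloid, 77.7% in BM+PB, 65.3% in BM+spleen and 96.1% in endothelial cells. AMPL371481 ran from 68.9% (old 2) through 82.6% to 93.5% (LARRY replicate mouse 2), and was 82.5% in lung myeloid, 69.0% in BM+PB, 64.5% in BM+spleen and 77.1% in endothelial cells.

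In BM+PB 5 of the 9 members were below the marrow range, beside 32.1% of all 586 amplicons that were not methylated nearly everywhere, and the 5 were the CD11b-depleted amplicons. In BM+spleen 5 of 9 were outside the range, beside 30.5% of the 586, but AMPL388455 by only 0.0014 and AMPL371259 by only 0.852 percentage points, which is within counting error. In endothelial cells 7 of 9 were outside, beside 67.9%, and in lung myeloid cells 1 of 9, AMPL388455, was below, beside 18.9%. Shares in marrow and endothelium entered the choice of the members, so nothing is read from these counts. The median range over marrow was 22.0 percentage points for the members and 20.3 for the 586.

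**Figure D1:**
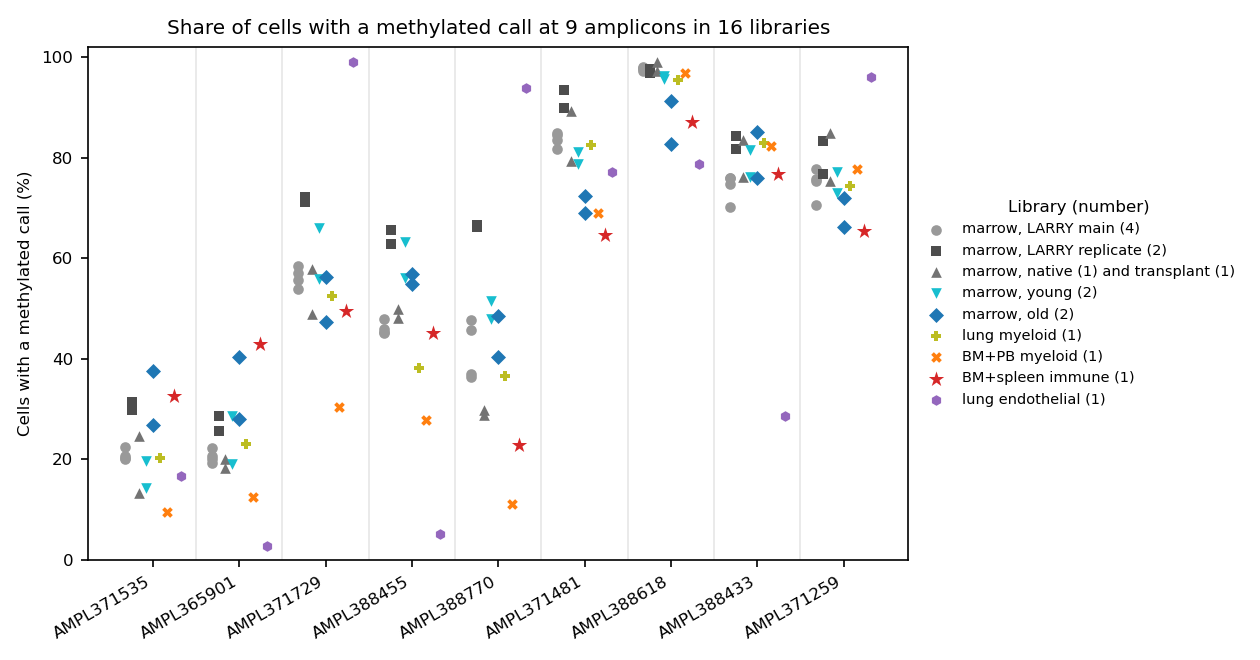
Share of cells with a methylated call (y axis, %) at the 9 amplicons (x axis, ordered by their partial correlation with CD11b in BM+spleen, lowest first), 1 point per library; colour and shape give the kind of library. The 5 amplicons on the left are lowest or next to lowest in BM+PB myeloid cells, and the endothelial library lies far from the blood libraries at AMPL388770, AMPL371729, AMPL388455, AMPL388433 and AMPL371259.

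Reads behind a call differed between the members. Methylated cells had a median of 2 to 17 reads of AMPL388455 and 4 to 23 reads of AMPL371535, depending on the library, against 26.5 to 195 reads of AMPL365901 in the libraries other than the endothelial one. Calls that rest on 1 read made up 19.1% to 34.9% of the AMPL365901 calls in native marrow and in all LARRY marrow libraries but main mouse 4, where they were 14.2%. In every other blood library they were 2.6% to 8.1% of its calls. In the endothelial library 45.2% of the AMPL388455 calls and 32.2% of the AMPL365901 calls rested on 1 read. The part of such calls in the shares above was not tested.

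In BM+spleen, cells high in the myeloid proteins CD11b and Ly-6C were less often methylated at the CD11b-depleted amplicons. For CD11b this is how the set was defined. Cells high in CD4, the co-receptor of helper T cells, were methylated there more often. Cells high in CD45R, the B cell form of CD45, were methylated more often at 4 of the 5, all but AMPL388770. The tag values below come from 5359 cells with at least 100 UMI, of which the 10% highest in a tag hold 536 cells and the lower 50% hold 2679. AMPL371535 was methylated in 8.58% of CD11b-high cells and in 45.6% of the lower 50% by CD11b (partial r = -0.32 given reads per cell). It was methylated in 12.5% of cells high in Ly-6C, a protein of monocytes, but in 65.3% of CD45R-high cells and 58.4% of CD4-high cells. AMPL365901 was methylated in 20.9% of CD11b-high cells against 56.4% (r = -0.30) and in 23.7% of Ly-6C-high cells, and in 79.7% of CD45R-high cells against 35.4% (r = 0.21) and 67.9% of CD4-high cells. Both members thus separated the myeloid from the lymphoid tags in the same direction.

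AMPL371729 was methylated in 28.2% of CD11b-high cells against 62.2% (r = -0.29), in 24.4% of Ly-6C-high, 84.3% of CD45R-high and 74.3% of CD4-high cells. AMPL388455 was methylated in 27.6% of CD11b-high cells against 56.3% (r = -0.25), in 18.1% of Ly-6C-high, 76.3% of CD45R-high and 65.1% of CD4-high cells. These 4 members shared 1 order of the tag groups, with CD45R-high cells at the top, CD4-high cells next and myeloid-high cells at the bottom. AMPL388770 did not: it was methylated in 56.9% of CD4-high cells against 16.4% of the lower 50% by CD4 (r = 0.22), in 40.9% of cells high in CD8, the co-receptor of cytotoxic T cells, but in only 15.5% of CD45R-high cells. In CD11b-high cells it was at 9.51% against 29.97% (r = -0.19), and in cells high in Ly-6G at 16.8% against 26.4%.

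The CD11b-enriched amplicons mirrored this pattern and also divided into 2 kinds. AMPL388433 was methylated in 95.1% of CD11b-high cells against 66.7% (r = 0.25) and in 89.6% of Ly-6G-high cells, but in 47.8% of CD45R-high cells against 83.4% (r = -0.22). AMPL371259 was methylated in 91.2% of CD11b-high cells against 52.9% (r = 0.30) and in 84.0% of Ly-6G-high cells, but in 40.3% of CD45R-high cells against 70.6% (r = -0.16). Both were lowest in CD45R-high cells. AMPL388618 was lowest in CD4-high and CD8-high cells, at 62.1% of CD4-high cells against 91.6% (r = -0.20) and 71.1% of CD8-high cells, while 93.1% of CD45R-high and 97.6% of CD11b-high cells were methylated there. The general T cell tag CD3 did not show this: AMPL388618 was methylated in 84.7% of CD3-high cells against 88.0% (r = -0.033) and AMPL388770 in 23.9% against 22.3% (r = 0.024). AMPL371481 had the smallest coefficients of the 4, with 78.4% of CD11b-high cells against 59.3% (r = 0.11), 78.2% of Ly-6C-high, 51.7% of CD4-high and 60.6% of Sca-1-high cells.

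The median difference at the leading tag was 34.1 percentage points over the 9 members. At least 1 tag reached an absolute r of 0.2 for 7 of the 9, beside 5.71% of 543 amplicons in the same library. As the members were chosen on this association, the count is no result about them. Median reads per cell were close in the highest 10% and the lower 50%, at 25459.5 and 23639 for CD11b, 25434 and 23418 for CD45R and 24750.5 and 23658 for CD4. When tags were ranked without centring, so that the ranking follows a cell's total UMI, the median difference was 13.3 percentage points.

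**Figure D2:**
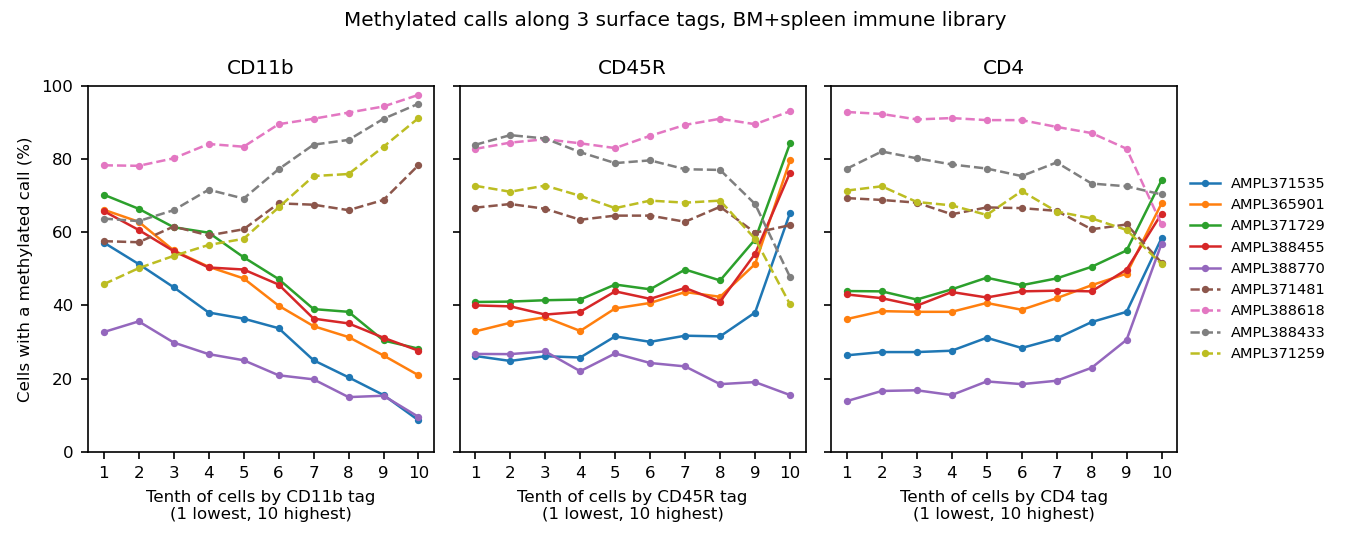
Cells of the BM+spleen library in 10 groups of equal size, ranked by the CD11b, CD45R and CD4 tag (x axis, relative to the cell's other tags) against the share with a methylated call (y axis, %), 1 line per amplicon, solid for the CD11b-depleted and dashed for the CD11b-enriched amplicons. Shares change along the whole CD11b scale, while most of the change with CD45R and CD4 lies in the last groups, where AMPL388770 parts from the other solid lines in CD45R and AMPL388618 from the other dashed lines in CD4.

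The shape of the relation differed between the tags. AMPL371535 went from 57.2% in the lowest 10% of cells by CD11b to 36.4% in the fifth and 8.58% in the last of 10 groups of equal size. Along CD4 AMPL388770 stayed between 13.8% and 22.9% over the lower 8 groups, then stood at 30.6% and 56.9% in the upper 2. AMPL388618 kept to between 87.1% and 92.9% over the lower 8 groups by CD4, then was at 82.8% and 62.1%. Along CD45R AMPL365901 stayed between 32.9% and 43.7% over the lower 8 groups and stood at 51.3% and 79.7% in the upper 2. The steps at the upper end of CD4 and CD45R contrast with the steady change along CD11b.

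In BM+PB the same 5 members were methylated more often in cells ranked high in CD48, a SLAM-family protein of leukocytes, and in Sca-1. Sca-1 is a protein of stem cells and of some lymphocytes. Its tag was at the level of isotype control antibodies, which measure background. It had a median of 2 UMI on 80.9% of cells, against 2 on 80.2% for the control MOPC.173 and 3 on 85.8% for RTK2071. CD48 and CD61 had a median of 5 UMI. Sca-1-high cells of this library are thus not shown to bear the protein. AMPL365901 was methylated in 38.1% of the 391 CD48-high cells against 5.64% of the 1950 in the lower 50% (r = 0.28), and in 34.0% of Sca-1-high cells against 8.82%. It was methylated in only 4.60% of cells high in the adhesion receptor CD44 against 19.5%, and in 6.91% of cells high in the tetraspanin CD9 (r = -0.24). CD48 and CD44 thus marked opposite ends for this member. AMPL371535 was methylated in 25.8% of CD48-high and 28.6% of Sca-1-high cells, but in 2.56% of CD44-high cells against 15.5% (r = -0.27) and in 5.37% of CD9-high cells. AMPL371729 was methylated in 49.1% of CD48-high and 54.5% of Sca-1-high cells, but in 25.1% of CD9-high cells against 40.6% (r = -0.26) and in 22.0% of CD44-high cells. AMPL388455 followed the same tags with smaller coefficients, at 43.5% in Sca-1-high, 38.4% in CD48-high, 26.6% in CD9-high and 25.3% in CD44-high cells. With centred tags these 4 members thus had 1 pattern in BM+PB too, least clearly AMPL388455. With uncentred tags its difference by CD44 turned to 5.16 percentage points. AMPL388770 was methylated in 4.60% of cells high in the integrin CD61 against 16.6% (r = -0.19) and in 4.86% of CD44-high cells, but in 23.8% of Sca-1-high and 23.0% of cells high in the platelet integrin CD41.

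Of the CD11b-enriched set AMPL388433 and AMPL371259 had the opposite signs in that library, AMPL388618 hardly varied and AMPL371481 had the same signs. AMPL388433 was methylated in 91.8% of CD9-high cells against 76.8% (r = 0.20) and in 92.1% of CD44-high cells, but in 74.7% of CD48-high cells against 85.7% and 70.8% of CD127-high cells. AMPL371259 was methylated in 85.4% of CD9-high and 88.5% of CD44-high cells, but in 64.7% of CD48-high cells against 83.0% (r = -0.16) and 64.5% of cells high in integrin b7. AMPL388618 had no absolute r above 0.034, and its shares lay between 96.4% and 98.2% on both sides of its 4 leading tags, CD127, CD48, CD9 and CD278. AMPL371481 was methylated in 83.1% of CD48-high cells against 64.3%, 74.7% of Sca-1-high cells against 67.2%, 69.6% of CD9-high cells against 73.3% and 64.2% of CD61-high cells against 71.9%. In BM+PB 4 of 9 members reached an absolute r of 0.2, beside 5.31% of 546 amplicons, and the median difference at the leading tag was 12.9 percentage points, or 4.28 with uncentred tags. The BM+PB panel held none of CD11b, Ly-6C, Ly-6G, CD45R, CD4 and CD8, so the libraries could not be compared tag by tag for those proteins.

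Calls at the 9 amplicons went together in the same cells. The phi coefficient, a correlation of 2 yes-or-no calls over cells, was given for each of the 36 pairs of members. In BM+spleen all 10 pairs within the CD11b-depleted set were positive, from 0.38 (AMPL388770 with AMPL388455) to 0.71 (AMPL365901 with AMPL371535), with a median of 0.56. All 6 pairs within the CD11b-enriched set were positive with a median of 0.24, the highest being 0.46 for AMPL388433 with AMPL371259. All 20 pairs across the sets were negative with a median of -0.36. The lowest was -0.56 for AMPL388770 with AMPL388618, the members that followed CD4 and CD8 in opposite directions. Over all 36 pairs the median absolute phi was 0.39, beside 0.037 over all pairs of 545 amplicons. Cells share depth and library, and co-occurrence entered the choice of the members. With a call of at least 10 reads the median absolute phi was 0.22.

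Within the CD11b-depleted set the median phi was 0.32 in BM+PB, 0.30 in lung myeloid cells and 0.014 in endothelial cells. Over the 12 marrow libraries it ran from 0.14 (young 1) through a median of 0.24 to 0.39 (old 2). The 2 old libraries, at 0.32 and 0.39, were above the 2 young ones, at 0.14 and 0.19. Over all pairs of amplicons the median absolute phi was 0.023 in old 1 and 0.0454 in old 2. It was 0.0233 in young 1 and 0.0256 in young 2, so old 2 was also the highest of these over the whole panel. In endothelial cells AMPL371729 and AMPL388770 were methylated in nearly all cells and AMPL365901 and AMPL388455 in few, so calls left little room to vary together there. Pairs across the sets were negative in 15 of 20 cases in BM+PB, 14 in lung myeloid cells and 9 in endothelial cells.

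**Figure D3:**
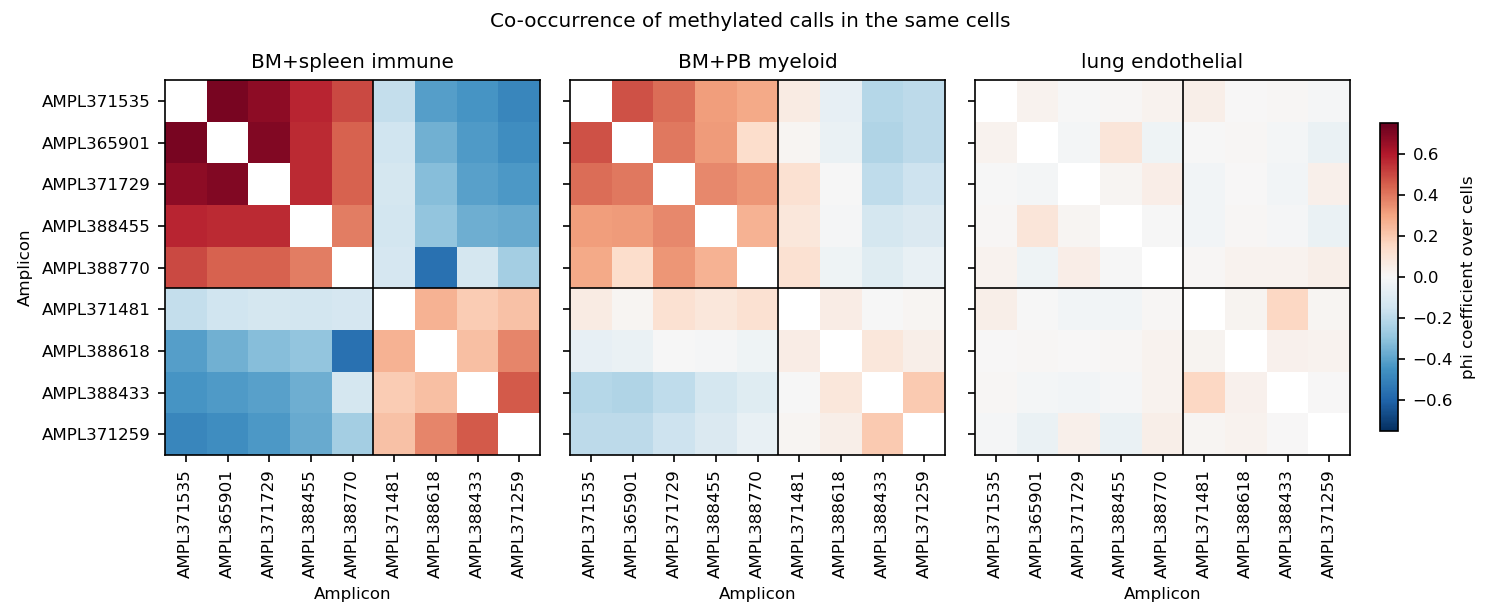
Phi coefficient (colour) of methylated calls over cells for each pair of the 9 amplicons in BM+spleen, BM+PB and lung endothelial cells, with black lines between the 5 CD11b-depleted and the 4 CD11b-enriched amplicons. Pairs within the 5 are from 0.38 to 0.71 in BM+spleen and from 0.13 to 0.48 in BM+PB, and lie between -0.034 and 0.088 in endothelial cells.

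Counting how many of the 5 CD11b-depleted amplicons were methylated in each cell showed 2 heaps in BM+spleen. There 36.4% of 7385 cells had none of the 5, 16.4% had 4 and 14.5% had all 5, while only 6.38% had 2. Among CD45R-high cells 11.9% had none and 60.1% had 4 or 5. In CD4-high cells these were 18.3% and 61.6%, in CD11b-high cells 49.8% and 8.396%, and in Ly-6C-high cells 63.1% and 11.01%. In BM+PB 53.4% of 5239 cells had none and 1.57% had all 5. The endothelial library had a single heap, with 72.5% of cells at 2 of 5.

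In marrow the middle classes were fuller. Cells with 2 of 5 made up 23.6% in young 2 and 24.0% in young 1, against 14.3% in old 1 and 11.3% in old 2. All 5 amplicons were methylated in 13.3% of cells of old 2 and 5.42% of old 1, against 3.35% and 1.60% of young 2 and young 1. The old libraries were outside the range of the young ones in both classes, which was not tested. The LARRY replicate libraries had the fewest marrow cells with none, at 9.94% and 8.94%, and the transplantation library the most, at 31.1%.

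Cells with none of the 5 were nearly all methylated at AMPL388433 and AMPL388618 in BM+spleen, at 93.2% and 97.8%. Cells with all 5 were methylated at AMPL388433 in 60.5% and at AMPL388618 in 38.0% of cases. Cells with 4 of 5 stood at 40.0% for AMPL388433 but 86.1% for AMPL388618. AMPL371259 was methylated in 30.1% of cells with 4 and 31.6% of cells with 5, the lowest of the CD11b-enriched amplicons in both classes. AMPL371481 was at 55.2% and 45.8%. Cells with 5 were thus more often methylated at AMPL388433 than cells with 4, and less often at AMPL388618.

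**Figure D4:**
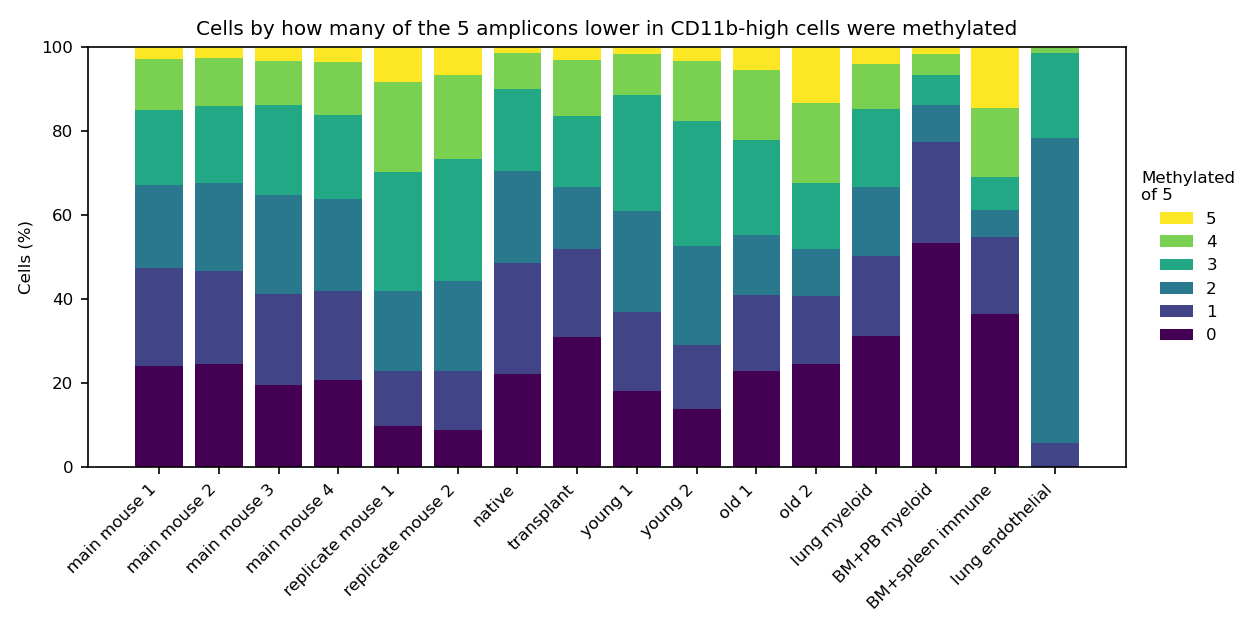
Cells of each of the 16 libraries (x axis) by how many of the 5 CD11b-depleted amplicons were methylated in the cell (colour, from 0 to 5), as a share of all cells (y axis, %). BM+spleen holds 36.4% of cells at 0 and 14.5% at 5, BM+PB holds 53.4% at 0, and 72.5% of endothelial cells sit at 2.

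Joint states of 2 pairs of members separated the lymphoid tags further. These pairs were picked after their values were seen. Cells methylated at AMPL388770 and unmethylated at AMPL388618 made up 35.1% of CD4-high (exact 95% interval 31.0% to 39.3%) and 26.9% of CD8-high cells of BM+spleen, but 4.66% of CD45R-high and 1.31% of CD11b-high cells. Within the CD4-high cells the product of the separate shares is 21.6%. Cells methylated at AMPL365901 and unmethylated at AMPL388433 made up 48.9% of CD45R-high cells (44.6% to 53.2%), 27.1% of CD4-high and 1.49% of CD11b-high cells, with a product of 41.6% in the first of these. Each state was thus commonest in a different group of lymphoid-tag cells and rare in CD11b-high cells.

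The first state held 10.9% of all BM+spleen cells, where the product of the separate shares is 2.97%. In marrow it held 0.291% of native cells, 0.971% to 1.48% of LARRY main cells, 2.60% and 1.69% of LARRY replicate cells and 1.09% of cells after transplantation. Young 1 and young 2 had 3.07% and 2.25%, and old 1 and old 2 had 6.46% and 15.3%. Both old libraries were above both young ones. So were the products of their separate shares, 3.56% in old 1 and 8.39% in old 2. These products were 2.23% in young 1 and 1.77% in young 2. How much of the difference follows from the separate shares was not tested. The endothelial library reached 19.8%, close to the product of its separate shares, 20.03%. The second state held 18.9% of BM+spleen cells, 5.04% of BM+PB cells and 3.72% to 12.1% of cells in the marrow libraries.

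For each member the amplicon outside the 9 with the largest absolute phi in BM+spleen was taken from 536 candidates. AMPL365828 was nearest to AMPL365901, with a phi of 0.75 over 7385 cells and 0.60 in BM+PB, and to AMPL371729, with 0.69 and 0.43. AMPL371668 was nearest to AMPL371535 (0.71 and 0.49), to AMPL388455 (0.57 and 0.34) and, with the opposite sign, to AMPL371259 (-0.46 and -0.18). AMPL371677 was nearest to AMPL388770, with 0.60 in BM+spleen but 0.19 in BM+PB. AMPL377174 was nearest to AMPL388618 (0.63 and 0.063) and to AMPL371481 (0.28 and 0.057), and AMPL371524 to AMPL388433 (0.43 and 0.20). Absolute phi was lower in BM+PB for every member, so the drop was not particular to those that followed CD4 and CD8. AMPL388618 was methylated in 96.9% of BM+PB cells, so its calls left little room to vary together there.

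Whether the members vary with surface proteins in marrow was tested over 4 libraries with tags, LARRY main mouse 3 and mouse 4, LARRY replicate mouse 1 and native marrow, which did not enter the choice of the members through their tags. Native marrow had tags for c-Kit, Sca-1, CD150 and CD48 only, so those 4 proteins rest on 4 libraries and the other 15 on 3. Partial correlations given reads per cell were averaged over libraries and tested with limma over all 11267 pairs of 593 amplicons and 19 proteins, with Benjamini-Hochberg adjustment at 0.05. Of the 171 pairs with a member, 75 were called, 41 positive and 34 negative, which is 43.9% of them; over all pairs 18.8% were called. Each of the 9 members had at least 1 called protein, beside 56.3% of amplicons. The median of the largest absolute r was 0.21 over members and 0.066 over the 593 amplicons. Co-occurrence in cells entered the choice of the members, so their pairs are not independent of each other.

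All 5 CD11b-depleted amplicons were methylated more often in marrow cells with more Sca-1, with a mean r of 0.13 to 0.17 (limma adjusted p from 0.00121 to 0.00785), beside 21.6% of all amplicons called positive with it, and none of the 4 CD11b-enriched amplicons was called, at -0.046 to -0.0014. AMPL388770 was methylated in 73.9%, 71.1%, 86.2% and 44.2% of Sca-1-high cells of main mouse 3, main mouse 4, replicate mouse 1 and native marrow, against 47.8%, 40.7%, 61.4% and 29.7% of the lower 50%. AMPL388455 was methylated in 57.5%, 62.2%, 74.3% and 80.4% of Sca-1-high cells against 45.7%, 47.7%, 61.0% and 46.5%. In each of the 4 libraries Sca-1-high cells were the more methylated for both members. The tag itself was sparse, with a median of 0 or 1 UMI per cell. Calls at the 5 amplicons also went together in the same cells of these libraries. Their median phi was 0.23 in main mouse 3, 0.26 in main mouse 4, 0.21 in replicate mouse 1 and 0.19 in native marrow. The 5 are thus not separate results for this or another protein. All 5 were also called positive with ESAM, an adhesion protein of stem cells and endothelium, at 0.071 to 0.18, beside 22.4% of all amplicons, and with I-A/I-E, the class II antigen-presenting protein, at 0.073 to 0.16, beside 8.77%. The stem cell receptor CD150 was called positive for 3 of them (AMPL371535, AMPL371729 and AMPL388455) beside 13% of all amplicons, and CD90, or Thy-1, beside 5.56%, for 3 (AMPL388770, AMPL371729 and AMPL388455).

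CD61, an integrin chain of megakaryocytes and platelets, went the opposite way. Of the 5, 4 were called negative with it, beside 6.58% of all amplicons: AMPL371729 at a mean r of -0.26 (adjusted p = 0.00211, limma), AMPL388770 at -0.24 (adjusted p = 0.00121), AMPL388455 at -0.23 (adjusted p = 0.00198) and AMPL371535 at -0.086 (adjusted p = 0.0191). AMPL371729 was methylated in 36.9%, 30.4% and 39.5% of CD61-high cells of main mouse 3, main mouse 4 and replicate mouse 1, against 70.6%, 68.3% and 84.5% of the lower 50%. AMPL388770 was methylated in 27.2%, 16.3% and 45.3% of CD61-high cells against 65.1%, 62.3% and 77.9%. The high and low cells did not overlap across the 3 libraries for either member. The same 3 members, AMPL371729, AMPL388455 and AMPL388770, were called negative with CD115, the receptor for the monocyte growth factor CSF-1, at -0.13 to -0.21, beside 6.41% of all amplicons, and with CD34 at -0.058 to -0.14, beside 5.56%.

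c-Kit, called with either sign for 28.8% of all amplicons, divided the CD11b-depleted set. AMPL365901 had its largest coefficient with it, a mean r of -0.21 (adjusted p = 0.00290, limma): it was methylated in 9.70%, 3.70%, 14.8% and 19.2% of c-Kit-high cells of main mouse 3, main mouse 4, replicate mouse 1 and native marrow, against 34.0%, 32.5%, 39.9% and 28.1% of the lower 50%. Every c-Kit-high group was below every lower group for this member. AMPL371535 was also called negative (-0.13, adjusted p = 0.00265) and AMPL388770 positive (0.095, adjusted p = 0.0212). CD48 was called negative for AMPL388770, at -0.21 in 4 of 4 libraries, where CD48-high cells had 31.0%, 34.1%, 43.7% and 16.2% methylated against 65.2%, 53.4%, 80.01% and 42.2%. It was called negative for AMPL371535 at -0.14, although the highest 10% of cells of main mouse 3 had more methylated cells, 32.1%, than the lower 50%, 27.5%. CD48 was called with either sign for 25.6% of all amplicons.

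Remaining calls of the CD11b-depleted set were spread over other proteins. AMPL365901 was called negative with CD49f (-0.18) and CD9 (-0.13) and positive with CD127 (0.13), the interleukin-7 receptor, and CD135 (0.094). AMPL371535 was called negative with CD27 (-0.14) and positive with CD201 (0.061). AMPL388770 had the most calls, 17 of 19 proteins. Its others were positive with CD49f (0.20), CD27 (0.11) and CD41 (0.11) and negative with FceRIa (-0.13), CD127 (-0.12), CD201 (-0.091), CD135 (-0.081) and Ter-119 (-0.079).

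In the CD11b-enriched set AMPL388433 had 13 calls, led by the integrin CD49f at 0.23 (adjusted p = 0.00109, limma). It was methylated in 86.6%, 90.4% and 93.2% of CD49f-high cells of main mouse 3, main mouse 4 and replicate mouse 1, against 73.1%, 69.9% and 76.9%. Its next were CD27 (0.15), CD9 (0.12), CD61 (0.10) and c-Kit (0.049) on the positive side. On the negative side it had CD127 (-0.16), the erythroid protein Ter-119 (-0.15), FceRIa (-0.11), CD201 (-0.099), CD135 (-0.097), CD34 (-0.086), CD115 (-0.070) and CD48 (-0.057). AMPL371259 had 7 calls, with CD9 (0.12), CD61 (0.096), CD49f (0.094), CD41 (0.074) and ESAM (0.059) positive and CD48 (-0.12) and I-A/I-E (-0.060) negative. AMPL371481 had 4, with c-Kit (0.12) and CD27 (0.073) positive and CD61 (-0.076) and CD201 (-0.061) negative, and AMPL388618 had c-Kit alone (0.063, adjusted p = 0.0266). CD61 was thus positive for 2 of these 4 members, beside 15.5% of all amplicons, and negative for 1, and negative for 4 of the other 5.

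Without LARRY main mouse 3 or main mouse 4 the called member pairs were 44 and 43. Pairs with 3 libraries then rest on 2. Of the 75 pairs, 32 were called under every alternative tried, Sca-1 with each of the 5 CD11b-depleted amplicons among them. ESAM and CD150 were so kept for AMPL371535 alone. I-A/I-E and CD61 were kept only for AMPL371729, AMPL388455 and AMPL388770. No call with CD48 was kept under every alternative.

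**Figure D5:**
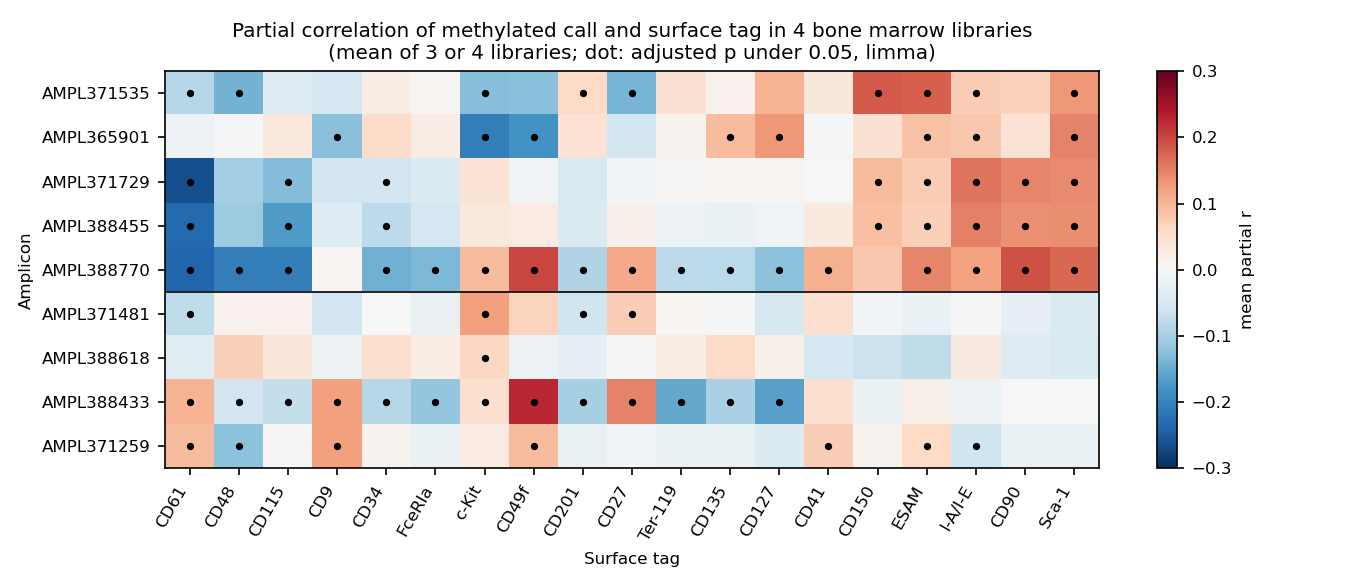
Mean partial correlation (colour) of the methylated call of each of the 9 amplicons (y axis) with 19 surface tags (x axis) over 3 or 4 bone marrow libraries; dots mark an adjusted p under 0.05 in limma, and the line divides the 5 CD11b-depleted from the 4 CD11b-enriched amplicons. Sca-1, ESAM and I-A/I-E carry dots for all 5 upper rows, all positive, and CD61 carries 4 negative dots there and 2 positive ones below.

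Old and young marrow were compared over 579 amplicons with edgeR's quasi-likelihood test on cells with and without a read, 2 libraries against 2. Since marrow shares entered the choice of the members, their values are given as description, and nothing is read from how many were called. The fit called 1 of the 9, AMPL388618, beside 2.94% of all amplicons. It was methylated in 95.7% and 96.3% of cells of young 1 and young 2, and in 91.2% and 82.7% of cells of old 1 and old 2, a difference in log odds of -1.23. Both old libraries were lower, and old 2 was the lowest of all 12 marrow libraries. Old 2 was also the deepest of the 4, at 50356 reads per cell against 27421 to 29540. With cells thinned to 20835 reads the difference was -1.31. Cells with fewer reads were left out of that fit, 23.1% of young 1, 25.0% of young 2, 19.5% of old 1 and 7.12% of old 2. The call was lost under 8 of 14 alternatives: without young 1, young 2 or old 2, with a call of 2, 5 or 10 reads, and with edgeR or DESeq2 on summed reads.

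Of the other 8 members, 3 were higher and 5 lower in old marrow, with log odds from -0.50 to 0.84, and none was called. AMPL371535 had the largest of these, with 14.4% and 19.6% in young against 26.8% and 37.5% in old libraries (0.84). AMPL365901 had 19.0% and 28.6% in young against 28.1% and 40.3% in old, so the groups overlapped. AMPL371481 had 78.6% and 81.1% against 72.3% and 68.9% (-0.50). The groups did not overlap for 4 of 9 members, beside 43.5% of all amplicons. The median log odds was -0.21 over the members and 0.13 over all amplicons. Over all amplicons the calls went from 0 without young 2 (35 at an unadjusted p under 0.05 in edgeR) to 73 without old 1.

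The LARRY replicate experiment was set beside the main experiment in the same way, over 596 amplicons, to show how far the members' shares move between 2 runs of one kind of sample, again as description. The fit called 6 of the 9, all higher in the replicate experiment, beside 31.2% of all amplicons called and 30.7% called higher. The direction depends on the scale: when reads summed per library were compared relative to the rest of the panel, AMPL388770, AMPL388433, AMPL371535 and AMPL371729 were lower in the replicate experiment, at -0.12, -0.18, -0.25 and -0.46 on the log2 scale in edgeR, and none was called. AMPL388770 was methylated in 37.0%, 36.4%, 47.7% and 45.8% of cells of main mice 1 to 4 and in 66.3% and 66.6% in the replicate mice, a difference in log odds of 1.02. AMPL388455 had 45.3%, 45.1%, 45.9% and 47.9% against 65.6% and 62.9% (0.74). AMPL371729 had 55.7%, 53.9%, 58.4% and 57.0% against 71.1% and 72.2% (0.68). For these 3 the replicate libraries lay above all main libraries.

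AMPL371481 was at a mean of 83.7% ± 1.39 (SD, n = 4) and 91.7% ± 2.53 (n = 2), AMPL388433 at 74.2% ± 2.76 and 83.0% ± 1.73, and AMPL371535 at 20.8% ± 1.07 and 30.6% ± 1.16. Their log odds were 0.78, 0.53 and 0.52. The other 3 were not called, with AMPL365901 at 0.36, AMPL371259 at 0.31 and AMPL388618 at -0.14. The groups did not overlap for 7 of 9 members, beside 54.2% of all amplicons. The median log odds was 0.53 over the members and 0.47 over all amplicons, of which 506 were above 0. The fit called no member without replicate mouse 2, when it called 4 of all amplicons (183 at an unadjusted p under 0.05 in edgeR), or with a call of at least 5 or 10 reads, and 3 without main mouse 2.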

How the data were processed

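Per the labels' protocols, the libraries are scTAM-seq based on Mission Bio Tapestri, a droplet platform for single-cell DNA. The authors deposited 1 table of read counts per cell and amplicon for each of 16 libraries and, for some, counts of unique molecular identifiers (UMI) per antibody tag; neither is normalized. The submitters' processing notes name the build mm10. How reads were aligned, cells called and tags counted is not given in the sources used for the present text. Cells were used as deposited and doublets were not called. One tag table, listed for lung myeloid cells, was identical to that of the endothelial cells and matched 23.9% of lung myeloid barcodes against 99.6% of endothelial ones, so lung myeloid tags were not used.

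A methylated call needed 1 read. A cell without a read is unmethylated or was not amplified there; the 77 amplicons with a read in 90% or more of the cells in all libraries served as a check of amplification in each cell. Tags were ranked by centred log ratio in cells with at least 100 UMI, and partial correlations with the call were taken given log10 reads and the share of those 77 amplicons read. Their Fisher z values were tested over libraries with limma 3.58.1. For group comparisons, edgeR 4.0.16 under R 4.3.3 fitted its quasi-likelihood model to methylated and unmethylated cell numbers, with each library as a term, for amplicons whose mean share was 2 to 98%. Adjustment was by Benjamini-Hochberg over all amplicons or pairs, at 0.05. Shares carry exact Clopper-Pearson intervals at 95%, and the floor of a count of 0 is 3 cells; both cover counting error only. All 9 members are named, with the 2 most positive and the 2 most negative tags in each mature library and the nearest outside amplicon; 1 tag is not reported here. Members, lists and tests were chosen with earlier results of these data known. Alternatives were calls of 2, 5 or 10 reads, thinned cells, leaving out the 5% of cells richest in amplicons or 1 library in turn, other tag scales and covariates, the replicate block, limma on logit shares, and edgeR with TMM or DESeq2 1.42.0 on summed reads. The scripts were tested on simulated data.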

Additional observations from a re-analysis of the deposited data

Results flagged for a closer look

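Of the 52 called pairs of a member and a surface protein in marrow that were also measured in BM+PB, 13 had the opposite sign there, and of the 7 also measured in BM+spleen 0 did. Each contrast below sets the mean partial r over 3 or 4 marrow libraries beside the r of the single BM+PB library, and the difference was not tested. The largest was AMPL371535 with CD48 at -0.14 in marrow and 0.20 in BM+PB, where 25.8% of CD48-high cells were methylated against 5.18% of the lower 50%. AMPL388770 with CD48 was at -0.21 in marrow and 0.059 in BM+PB.

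The stem and progenitor receptor c-Kit gave 3 of the 13. AMPL365901 was at -0.21 in marrow and 0.021 in BM+PB, AMPL371535 at -0.13 and 0.057, and AMPL388433 at 0.049 and -0.085. In BM+PB c-Kit held 19.0% of all tag UMI, against 7.49% to 11.7% in the 4 marrow libraries, whose panels differ; the part of this in the contrast was not tested. With CD27, AMPL388433 was at 0.15 and -0.027 and AMPL371535 at -0.14 and 0.044. AMPL388770 was at -0.12 and 0.097 with CD127, at -0.081 and 0.044 with CD135 and at -0.091 and 0.013 with CD201. AMPL371481 with CD201 was at -0.061 and 0.0066. In BM+PB CD135 and CD201 had a median of 0 UMI and were found on 26.9% and 8.78% of cells. Isotype controls were found there on 72.6% to 85.8% of cells. CD27 was at the level of these controls, with a median of 2 UMI on 81.4% of cells. The contrasts with CD27, CD135 and CD201 thus rest on tags not above background in BM+PB. AMPL371259 was at 0.074 and -0.032 with CD41 and at 0.094 and -0.012 with CD49f. Of the 13 values in BM+PB, that of AMPL371535 with CD48 is alone above an absolute r of 0.1.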

How the results depend on the processing

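For old against young the counts of called amplicons and of called members were 17 and 1. They were 10 and 0 with a call of 2 reads, 0 and 0 with 5 reads or 10 reads (46 and 39 amplicons at an unadjusted p under 0.05 in edgeR), 0 and 0 with edgeR on summed reads (48 so) and 8 and 0 with DESeq2. Leaving out 1 library gave 0 to 73 amplicons and 0 to 2 members. For LARRY replicate against main, 186 and 6 became 43 and 0 with 5 reads, 3 and 0 with 10 reads, 1 and 0 with edgeR on summed reads, 36 and 0 with DESeq2, and 4 to 291 and 0 to 6 without 1 library. On summed reads 4 members turned lower, in edgeR and DESeq2 as log2 changes: AMPL388433 at -0.18 and -0.20, AMPL388770 at -0.12 and -0.14, AMPL371535 at -0.25 and -0.27, AMPL371729 at -0.46 and -0.48. The cause of these moves was not tested.

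Replicate numbers do not pair the samples, which are different mice; with the replicate block old against young gave 16 and 1, and LARRY 78 and 1 (AMPL388770).

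Of 900 refits of the 75 called marrow pairs, 761 kept sign and call, 136 lost the call and 3 turned sign: AMPL371535 with CD201 (-0.0043 with no UMI minimum), AMPL388770 with CD201 (0.035) and with Ter-119 (0.011), both with uncentred tags. Leaving out 1 library gave 955 to 3003 called pairs, 43 to 97 of them of members.

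The median difference at the leading tag in BM+spleen was 24.3 points with 10 reads, 13.3 with uncentred tags and 26.4 for the highest 25% of cells. In BM+PB it was 8.57 with 10 reads and 4.28 with uncentred tags, which also turned AMPL388770 by CD61 to 4.67, AMPL388455 by CD44 to 5.16 and AMPL371481 by CD9 to 1.08. The median absolute phi was 0.31 with 5 reads, 0.22 with 10 reads and 0.42 without the cells with the most amplicons. Lung myeloid tags were not run. Low reads at AMPL388455 and AMPL371535 limit all of their values.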

Other observations

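In the endothelial library the partial r of the members with CD31, Podoplanin and Sca-1 stayed within -0.11 and 0.12. There AMPL371729, AMPL371259 and AMPL388770 were methylated in 99.0%, 96.1% and 93.8% of cells and AMPL365901 and AMPL388455 in 2.69% and 5.19%, so that 72.5% of its cells had exactly 2 of the 5 CD11b-depleted amplicons.

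The transplantation library, 1 library with no replicate, had the lowest share of AMPL365901 among the 12 marrow libraries, 18.3%, and its median phi within the CD11b-depleted set, 0.33, was above those of all other marrow libraries except old 2.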
